A study of Homo sapiens with 15 samples.

Results

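Nucleotide excision repair is the pathway that removes bulky lesions such as cisplatin adducts from DNA, and its 10 core genes were examined here as places on the genome where reads from a platinum-adduct map fall. The members were XPC and DDB2, which recognise damage genome-wide, ERCC8 and ERCC6, which start repair at stalled RNA polymerase, ERCC2 and ERCC3, the helicases of the TFIIH complex, XPA, which verifies the lesion, and ERCC1, ERCC4 and ERCC5, which make the incisions. For each gene, the counting windows with a midpoint inside its body (hg19, canonical transcript) were summed, and so were the windows within 250 kb of either end, which served as its flank and as a reading of relative copy number. The gene bodies held 421 of the 3373681 windows on chromosomes 1 to 22 and X. The 10 genes were set among 20083 protein-coding genes, and each test covered those with enough reads, such as 16857 gene bodies and 20048 flanks.

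The libraries came from a single series of Pt-exo-seq, an assay in which exonucleases digest sheared DNA up to a platinum adduct, the platinum is then removed and the remaining strand is sequenced. PEO1 and PEO4 are established high-grade serous ovarian cancer lines derived from 1 patient, PEO1 before and PEO4 after resistance to platinum developed. There were 5 groups of 3 libraries: untreated PEO1, PEO1 given 16 µM cisplatin, untreated PEO4, and PEO4 given 16 or 32 µM. Doses of 16 µM in PEO1 and 32 µM in PEO4, given for 5 h, were picked by the study because they left both lines with a like adduct total. The labels number the replicates but give no separate culture for each, so the p-values measure the spread between these libraries, which may be technical. Total counts ranged from 27.7 to 56.6 M per library. Coverage is given relative to the mean count per window of the same library, so that 1 is the genome average, which was 8.95 to 18.29 counts. That mean was taken over windows with a read in at least 1 library. Gene bodies, flanks and starts were averaged over all their windows. Wider regions, chromosomes and larger bins were averaged over windows with a read. Reads also arise in untreated cells, so a level combines adducts, background, copy number and mappability.

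In this pathway, XPC and the UV-damage binding protein DDB2 find distorted DNA anywhere in the genome, while ERCC6 (CSB) and ERCC8 (CSA) act in transcribed genes. Both routes meet at TFIIH, whose helicases ERCC3 (XPB) and ERCC2 (XPD) open the strands. XPA checks the lesion, the ERCC1-ERCC4 (XPF) nuclease cuts on its 5′ side and ERCC5 (XPG) on its 3′ side, and a short patch is then resynthesised. Cisplatin binds mainly adjacent guanines, so a GG on either strand (GG or CC as read) is its main target.

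The 3 promoters printed here are those with the most and the fewest cisplatin target steps among the members, and that of ERCC8, whose start is described further below at 32 µM. Each is the 120 bases upstream of the transcription start on GRCh37, read 5′ to 3′ on the strand of the gene, with every GG and CC in capitals.
DDB2: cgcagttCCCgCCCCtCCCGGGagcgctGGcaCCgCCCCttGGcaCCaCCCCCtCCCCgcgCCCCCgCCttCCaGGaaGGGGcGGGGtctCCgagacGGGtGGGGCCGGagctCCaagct
ERCC6: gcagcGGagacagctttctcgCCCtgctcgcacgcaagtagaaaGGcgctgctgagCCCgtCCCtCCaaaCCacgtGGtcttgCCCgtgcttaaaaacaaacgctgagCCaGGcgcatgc
ERCC8: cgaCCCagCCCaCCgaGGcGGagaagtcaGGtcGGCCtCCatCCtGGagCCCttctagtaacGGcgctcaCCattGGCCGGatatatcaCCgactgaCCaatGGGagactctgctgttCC
The DDB2 stretch (chr11:47236405-47236524, plus strand) held 45 GG and CC steps, the most of the 10 members and at percentile 93.9 of all 20083 promoters. That of ERCC6 (chr10:50747168-50747287, minus strand) held 15, the fewest, at percentile 11.6. The ERCC8 stretch (chr5:60240898-60241017, minus strand) held 25. Overlapping steps within a run were each counted, and the other 7 members held 19 to 33. The median of all promoters was 28, and 99.99% of them held at least 1 such step, so holding a target step separates no member from other genes.

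Coverage split the members into 8 genes near or above the genome average and 2 well below it. XPA (chr9:100437191-100459622) and ERCC5 (chr13:103498382-103528345) had a mean body coverage of 0.623 and 0.582 over the 15 libraries, with ranges of 0.329 to 0.873 and 0.407 to 0.749. In the other 8 genes the means ran from 1.04 in ERCC2 to 1.26 in DDB2. Among all genes tested, XPA stood at percentile 16.2 and ERCC5 at percentile 11.0, while the highest member, DDB2, stood at percentile 77.2.

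The low level was shared by the DNA around both genes. Flank coverage of XPA was 0.596 (range 0.545 to 0.651) and that of ERCC5 was 0.562 (range 0.488 to 0.625), and in none of the 15 libraries did either flank reach the lowest flank value of the other 8 genes, 0.818. Between 1 and 5 Mb away, coverage was still 0.563 around XPA and 0.546 around ERCC5, and the whole of chromosome 9 had 0.675 and the whole of chromosome 13 had 0.538. Both lines, with and without cisplatin, showed it: the flank of XPA was 0.616 ± 0.019 (SD, n = 3) in untreated PEO1 and 0.602 ± 0.042 in untreated PEO4, and that of ERCC5 was 0.601 ± 0.021 and 0.532 ± 0.039. The incision gene ERCC4 (chr16:14014011-14046205) and the transcription-coupled gene ERCC8 (chr5:60162281-60240897) had flank GC contents of 41.05% and 38.01%, next to 42.68% for XPA and 39.45% for ERCC5, and flank coverages of 1.18 and 1.10. The cause of the low coverage was not tested. The lower coverage meant fewer reads, with 22.9% of the window counts of XPA at 0. For ERCC5 the share was 21.8%, against 3.21% to 11.3% in the other 8 genes.

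**Figure D1:**
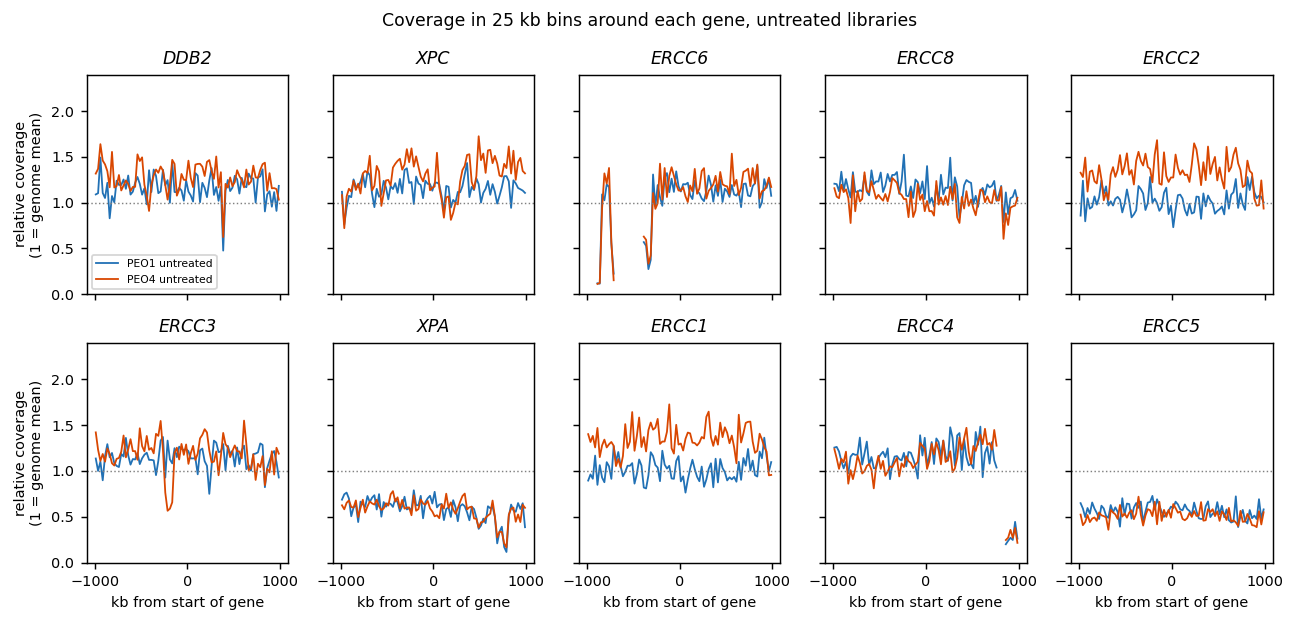
Relative coverage (y axis, 1 is the genome mean) in 25 kb bins up to 1000 kb on either side of each gene start (x axis, negative is upstream), as the mean of 3 untreated PEO1 libraries (blue) and 3 untreated PEO4 libraries (orange). XPA and ERCC5 lie in regions near 0.6 in both lines, ERCC1 and ERCC2 lie higher in PEO4 than in PEO1, and ERCC3 has a dip upstream in PEO4 alone.

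A segment upstream of ERCC3, the XPB helicase gene (chr2:128014866-128051720), had lower coverage in PEO4, at 0.492 of the PEO1 level. The segment, chosen after its values were seen, was 3 adjacent 25 kb bins from 150 to 225 kb upstream of the gene start (chr2:128201720-128276720). Untreated PEO1 libraries had 1.14, 1.20 and 1.20 and those at 16 µM had 1.15, 1.22 and 1.20. PEO4 libraries without drug had 0.686, 0.539 and 0.587. Those given 16 µM had 0.590, 0.561 and 0.579, and those given 32 µM had 0.598, 0.617 and 0.485. All 9 PEO4 libraries lay below all 6 PEO1 libraries, and within a line the dose groups overlapped. The segment holds 38333 bases of IWS1, a transcription elongation factor gene named here only for its place. Over the 75 kb on the side nearer ERCC3 the PEO4 level was 0.957 of the PEO1 level. Over the 75 kb on the farther side it was 0.933. That farther side still holds the 5 kb bins from 240 to 225 kb upstream, where PEO4 was low as well. PEO4 had 0.531, 0.615 and 0.567 there, against 1.05, 0.893 and 1.03 in PEO1.

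In 5 kb bins the ratio fell between 240 and 235 kb upstream, where PEO1 had 1.05 and PEO4 0.531, and rose again between 150 and 140 kb upstream. ERCC3 itself lay outside it. Its body coverage was 1.19 ± 0.13 in untreated PEO1 and 1.08 ± 0.08 in untreated PEO4, a log2 difference of -0.21 ± 0.14 (SE, edgeR adjusted p = 0.318). Among 783 bins of 25 kb within 1 Mb of the members, these 3 were the only ones in which the lines did not overlap and differed by a log2 ratio of at least 0.7. The genome held such bins in both directions, 4.96% of 112138 with PEO4 lower and 5.94% with PEO4 higher, and no test was made of the segment.

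**Figure D2:**
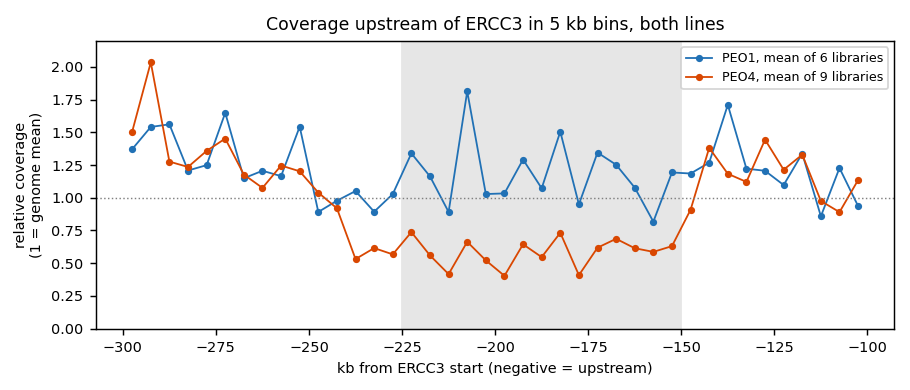
Relative coverage (y axis, 1 is the genome mean) in 5 kb bins from 300 to 100 kb upstream of the ERCC3 start (x axis), as the mean of 6 PEO1 libraries (blue) and of 9 PEO4 libraries (orange), with treated and untreated libraries together. PEO4 runs between 0.403 and 0.737 in the shaded segment of 225 to 150 kb, where the lowest PEO1 bin is 0.817.

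The segment entered the flank of ERCC3. Flank coverage with the segment was 1.04 ± 0.11 (SD, n = 3) in PEO4 given 32 µM. In PEO1 given 16 µM it was 1.26 ± 0.16. These libraries overlapped, with 0.952 to 1.17 in PEO4 and 1.14 to 1.44 in PEO1. Without the segment the means were 1.13 ± 0.13 in PEO4 and 1.28 ± 0.19 in PEO1, and the libraries overlapped as well. PEO4 ran from 1.01 to 1.27 and PEO1 from 1.13 to 1.49, and no test was made without the segment. In the untreated libraries flank coverage with the segment was 1.13 ± 0.06 in PEO4 and 1.14 ± 0.06 in PEO1. Without it the values were 1.22 ± 0.06 and 1.13 ± 0.07. The flank without the segment still held the low bins from 240 to 225 kb upstream. Since the segment was picked for being low in PEO4, leaving it out had to raise the PEO4 level against PEO1. In the comparison of treated libraries, added after the data were seen, the ERCC3 flank was the only member flank called by edgeR without a GC correction, lower in PEO4 at 32 µM than in PEO1 at 16 µM by a log2 difference of -0.23 ± 0.06 (SE, edgeR adjusted p = 0.00692), where 24.8% of 20048 genes were called (26.5% in DESeq2). At 16 µM in both lines it was -0.21 ± 0.06 (adjusted p = 0.0146, 24.4% of genes called). DESeq2 and a correction for GC content called it as well (adjusted p of 0.000285 and 9.97e-07 at 32 µM). The GC-corrected fit also called the flanks of ERCC2 and ERCC1, higher in PEO4 by 0.10 ± 0.04 each at 32 µM (adjusted p of 0.0374 and 0.0423). At 16 µM they were higher by 0.14 ± 0.04 each (adjusted p of 0.000945 and 0.00286). Genome-wide, that fit called 7254 of 20048 flanks at 32 µM and 7482 at 16 µM. Between the untreated lines the ERCC3 flank differed by -0.09 ± 0.06 (adjusted p = 0.219). It passed with the GC correction, at -0.13, where 8081 of 20048 flanks were called.

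The untreated lines were compared next, which asks how the background and copy number of the repair genes differ before any drug. Of the 10 gene bodies, 2 passed the test, both higher in PEO4: ERCC2, the XPD helicase, and ERCC1, the partner of ERCC4 in the 5′ nuclease. Genome-wide, 21.7% of 16857 gene bodies were called in this comparison (12.9% higher and 8.75% lower in PEO4), so 2 of 10 is close to the background. DESeq2 called the same 2 members and 23.8% of all genes. ERCC2 (chr19:45853095-45873831) had 0.571, 0.835 and 0.705 in the untreated PEO1 libraries and 1.25, 1.01 and 1.74 in those of PEO4. The log2 difference was 0.85 ± 0.24 (SE, edgeR adjusted p = 0.0108), with no overlap between the groups. ERCC1 (chr19:45910592-45927175) had 0.70, 0.942 and 1.09 in PEO1 and 1.47, 1.47 and 1.36 in PEO4, a log2 difference of 0.59 ± 0.21 (adjusted p = 0.0425), again without overlap. Both genes lie close together on chromosome 19 and their flanks share most of their windows, so they are not independent.

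Both calls depended on the GC correction and on single libraries. ERCC2 and ERCC1 are the most GC-rich members (56.57% and 53.02% of the gene body). The slope of log2 coverage, relative to the untreated mean of the line, on GC content was taken per 10 percentage points. It was -0.174 in replicate 1 of untreated PEO1, where ERCC2 and ERCC1 were lowest among the untreated libraries. In the other 5 untreated libraries it was -0.089 to 0.097. With a correction for GC content, the ERCC2 difference was 0.43 ± 0.18 (adjusted p = 0.0709) and the ERCC1 difference 0.30 ± 0.18 (adjusted p = 0.285). With the same correction the ERCC2 flank passed, at 0.09 ± 0.04 (adjusted p = 0.0476), and the ERCC1 flank was 0.09 ± 0.04 (adjusted p = 0.0793). Without replicate 1 of untreated PEO1 the ERCC2 difference was 0.74 (adjusted p = 0.0634), and without replicate 3 of untreated PEO4 it was 0.63 (adjusted p = 0.112). The ERCC1 call was lost on leaving out any 1 untreated library except replicate 3 of PEO1, with differences of 0.46 to 0.64 and adjusted p of 0.0672 to 0.213. In the treated libraries, compared after the data were seen, no member body passed between the lines, at 17.7% of genes for PEO4 at 32 µM and 17.6% at 16 µM.

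No member passed lower in PEO4. XPA had 0.678, 0.873 and 0.70 in PEO1 and 0.678, 0.599 and 0.329 in PEO4, and replicate 3 of PEO4 was the lowest. Its log2 difference was -0.55 ± 0.25 (adjusted p = 0.133). Leaving out 1 untreated library gave values from -0.74, without replicate 1 of PEO4, to -0.29, without replicate 3, and every second window gave -1.01, which passed. ERCC8 had 1.21, 1.13 and 1.11 in PEO1 and 0.855, 1.04 and 0.967 in PEO4, a log2 difference of -0.34 ± 0.13 (adjusted p = 0.0695) with no overlap. It passed without replicate 2 of untreated PEO4 (-0.43, adjusted p = 0.0481) and in a fit of the untreated groups alone (adjusted p = 0.0107). DDB2 (chr11:47236525-47260768) had 1.11, 1.15 and 1.13 against 1.5, 1.58 and 1.40, a log2 difference of 0.33 ± 0.16 (adjusted p = 0.166), also without overlap. In all, 5 of the 10 members did not overlap between the untreated lines, beside 40.2% of all genes. The remaining members had differences from -0.21 to 0.05 and adjusted p-values of 0.318 or more: XPC (chr3:14186647-14220101), ERCC6 (chr10:50662516-50747167), ERCC3, ERCC4 and ERCC5. Over all 15 libraries XPC ran from 0.904 to 1.63, ERCC6 from 0.958 to 1.33, ERCC3 from 0.951 to 1.40 and ERCC4 from 0.823 to 1.32, each of them spanning the genome average. By annotation ERCC2 overlaps KLC3, ERCC1 overlaps POLR1G and ERCC5 lies within the readthrough gene BIVM-ERCC5, so the windows there belong to more than 1 gene.

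Flank values differed in the same direction as the body for several of these genes, ERCC5 not among them. The ERCC5 body differed by 0.015 ± 0.215, and its flank was the only one to pass. That flank was lower in PEO4 by a log2 difference of -0.25 ± 0.09 (edgeR adjusted p = 0.0468). Genome-wide, 34.4% of 20048 flanks were called (20.0% higher and 14.4% lower). The ERCC5 call was lost on leaving out any 1 untreated library except replicate 2 of PEO4. Flanks of ERCC2 and ERCC1 were higher by 0.39 ± 0.15 and 0.38 ± 0.15 (adjusted p of 0.0515 and 0.066) and that of ERCC8 was -0.27 ± 0.10 (adjusted p = 0.0518), each short of the threshold. DESeq2 called the flanks of ERCC1, ERCC2, ERCC5 and ERCC8 and 40.5% of all genes. The ERCC5 call did not hold with a GC correction (-0.08, adjusted p = 0.235). When each body was divided by its own flank, none of the 10 members passed between the untreated lines. The limma test called 0.0593% of 16857 genes there, and 2 members had an unadjusted p under 0.05 (7.63% of genes): ERCC2 at 0.43 ± 0.19 (adjusted p = 0.621) and XPA at -0.51 ± 0.24 (adjusted p = 0.639).

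**Figure D3:**
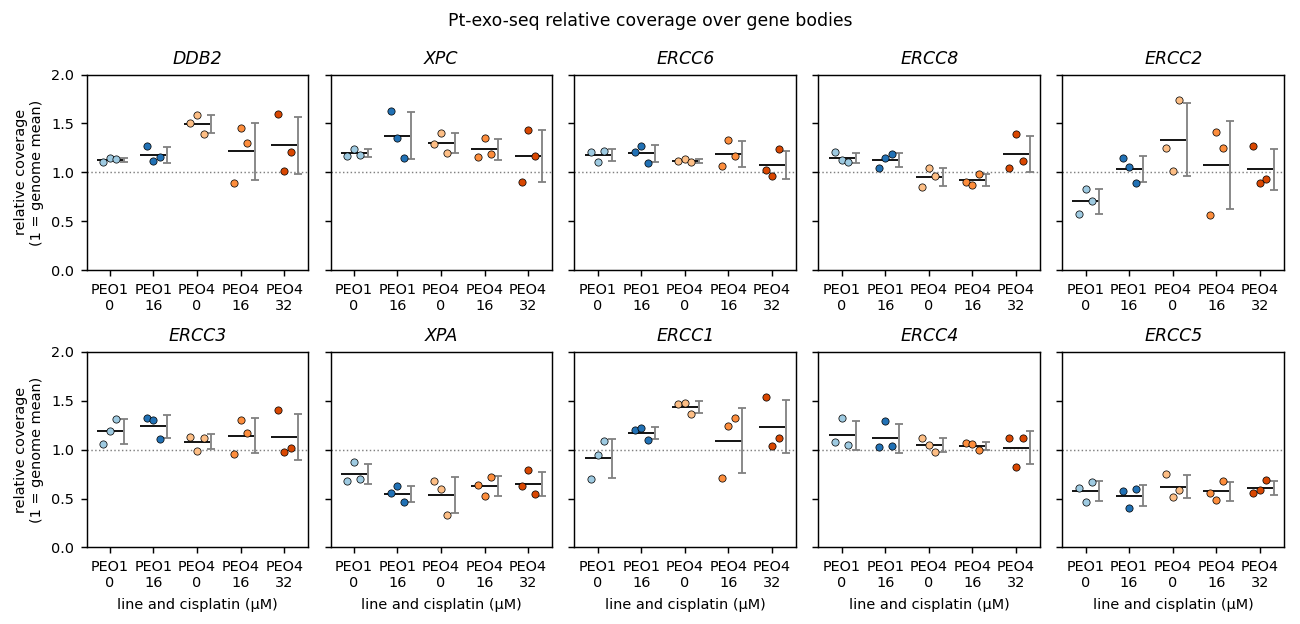
Relative coverage of each gene body (y axis, 1 is the genome mean) by line and cisplatin dose in µM (x axis). Points are the 3 libraries of a group, black lines are their means and grey bars their SD. The group means of ERCC2 and ERCC1 are lowest in untreated PEO1, and XPA and ERCC5 lie below 1 in every library.

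The response to cisplatin was then examined within each line, which asks where reads gain or lose in treated cells. No gene body of a member passed the test in either line at any dose. For PEO1 at 16 µM against untreated, the 10 log2 differences ran from -0.49 to 0.52 with a median of -0.003, and 1 of 16857 genes passed (0.00593%). In PEO4 at 16 and at 32 µM and between both doses no gene passed (0.0%), and the largest member difference was 0.39. The edgeR counts at an unadjusted p under 0.05 were 1 of 10 members for treated PEO1 (5.64% of genes). For PEO4 they were 0 with the lower dose (2.56%), 1 with the higher dose (6.66%) and 1 between both doses (2.54%). DESeq2 called no member in these comparisons either, and its share of all genes was 0.0178% for treated PEO1, 0.00593% for PEO4 with 32 µM and 0.0% for the other 2.

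In PEO1, ERCC2 was the member with an unadjusted p under 0.05. Its treated libraries had 1.15, 1.06 and 0.893, all above the untreated ones, a log2 difference of 0.52 ± 0.24 (adjusted p = 0.873). XPA went the other way, with 0.557, 0.627 and 0.460 after treatment, all below the untreated libraries, at -0.49 ± 0.25 (adjusted p = 0.875). ERCC1 had 1.20, 1.22 and 1.10 and also did not overlap, at 0.33 ± 0.21 (adjusted p = 0.916). These 3 of 10 members compare with 8.93% of all genes without overlap. The GC slope was 0.435 in replicate 1 of PEO1 at 16 µM and 0.017 and 0.042 in the other 2, and with a correction for GC content the differences were 0.30 for ERCC2, 0.23 for ERCC1 and -0.45 for XPA.

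In PEO4 at 32 µM, ERCC8 was the 1 member of 10 with an unadjusted edgeR p under 0.05, beside 6.66% of all genes. Coverage of this Cockayne syndrome gene was 1.04, 1.39 and 1.12 there. Untreated libraries had 0.855, 1.04 and 0.967, and those given 16 µM had 0.907, 0.867 and 0.985. The log2 difference was 0.38 ± 0.13 over untreated (edgeR adjusted p = 0.711) and 0.39 ± 0.13 over 16 µM (adjusted p of 1.0). The groups did not overlap in either comparison, beside 13.7% and 6.1% of all genes. Replicate 2 at 32 µM, the highest, had a GC slope of -0.294, with 0.059 and -0.205 in replicates 1 and 3. ERCC8 is the most AT-rich member (37.18% GC), and the cause of its difference was not tested. With a correction for GC content the ERCC8 difference was 0.21 over untreated and 0.31 over 16 µM. Divided by its flank, the difference was 0.20 ± 0.11 over untreated (limma adjusted p = 0.89) and 0.32 ± 0.11 over 16 µM (adjusted p = 0.998).

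ERCC2 and ERCC1 varied widely among the PEO4 libraries. At 16 µM ERCC2 had 0.569, 1.41 and 1.25 and ERCC1 had 0.711, 1.24 and 1.32, and replicate 1, the lowest for both genes, had a GC slope of -0.417. At 32 µM ERCC2 had 1.27, 0.889 and 0.933 and ERCC1 had 1.54, 1.04 and 1.12. The differences from untreated PEO4 were -0.27 ± 0.24 and -0.36 ± 0.21 at 16 µM and -0.31 ± 0.24 and -0.16 ± 0.21 at 32 µM (adjusted p of 0.76 or more), so none passed. ERCC1 was the 1 member without overlap at 16 µM, beside 10.2% of genes.

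Whether adducts lie differently in the resistant line was one of the study's questions, and for this the response of PEO4 was set against that of PEO1. No member passed at doses of similar platinum loading (PEO4 at 32 µM, PEO1 at 16 µM), and neither did any of the 16857 genes (0.0%). DESeq2 called 0.00593% of genes and no member. At an unadjusted p under 0.05 there were 3 of 10 members against 8.01% of all genes. XPA had a response difference of 0.84 ± 0.36 log2 units (approximate 95% interval from the SE, 0.12 to 1.56, adjusted p = 0.605). ERCC8 had 0.45 ± 0.19 (0.08 to 0.82) and ERCC2 had -0.82 ± 0.34 (-1.5 to -0.14), both with the same adjusted p. Both lines' untreated libraries enter these values, and for XPA, ERCC8 and ERCC2 the lines started apart and the treated libraries lay closer together. Between the treated libraries alone, the log2 difference of PEO4 over PEO1 was 0.29 ± 0.26 for XPA. It was 0.11 ± 0.13 for ERCC8 and 0.03 ± 0.24 for ERCC2. Corrected for GC content, the response differences were 0.68 for XPA, 0.23 for ERCC8 and -0.45 for ERCC2.

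At the same dose of 16 µM the picture was alike in size for XPA (0.77 ± 0.36, adjusted p = 0.698) and ERCC2 (-0.79 ± 0.34, adjusted p = 0.698), and ERCC1 had -0.69 ± 0.29 (adjusted p = 0.698). ERCC8 had 0.06 ± 0.19 there. No gene passed in edgeR and 0.0119% did in DESeq2, no member among them, and 7.12% of genes had an unadjusted p under 0.05, beside 3 of 10 members. Both response differences share the PEO1 and the untreated PEO4 libraries. Between the treated libraries at 16 µM, PEO4 over PEO1 was 0.22 ± 0.25 log2 units for XPA and 0.06 ± 0.24 for ERCC2. It was -0.09 ± 0.21 for ERCC1 and -0.28 ± 0.13 for ERCC8. The remaining members, XPC, DDB2, ERCC6, ERCC3, ERCC4 and ERCC5, had response differences between -0.27 and 0.23 at the 2 doses. Their intervals still allow sizeable values, such as -0.68 to 0.22 for XPC and -0.38 to 0.85 for ERCC5 at 32 µM. Body over flank gave XPA 0.91 ± 0.34 at 32 µM (limma adjusted p = 0.82, 0.0% of genes called). It was the only member there with an unadjusted p under 0.05, beside 6.07% of genes.

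**Figure D4:**
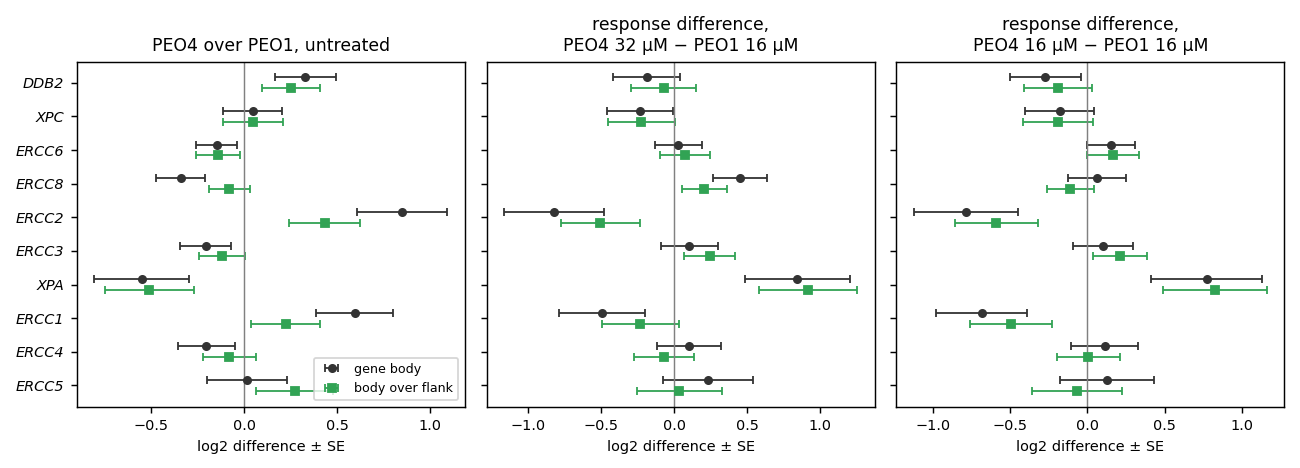
Log2 differences (x axis, bars are standard errors) of gene body counts (dark circles) and of body over flank (green squares) for each member (y axis), between the untreated lines and for the response differences at 32 and 16 µM in PEO4. Response differences of XPA lie to the right of 0 and those of ERCC2 to the left, opposite to their untreated differences, and no response difference passed the adjusted limit.

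Summed over the 10 gene bodies, coverage stayed within 0.91 to 1.13 of the genome mean in all 15 libraries. For PEO1 the pooled coverage was 1.06 ± 0.02 (SD, n = 3) before and 1.09 ± 0.05 after treatment. For PEO4 it was 1.07 ± 0.01 without drug, 1.03 ± 0.10 with 16 µM and 1.06 ± 0.02 with 32 µM. Pooled log2 differences lay between -0.10 and 0.05, and none exceeded the largest SD among the groups compared. ERCC6 and ERCC8 supply 181 of the 421 windows, so the sum leans on them. Exons and introns were near each other, with 1.04 ± 0.08 over 159 exonic windows and 1.07 ± 0.07 over 262 intronic windows (SD over 15 libraries). In untreated PEO1 these were 1.00 and 1.09, and in untreated PEO4 1.10 and 1.05. DDB2 showed the widest gap, 0.972 in exonic and 1.40 in intronic windows.

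Within 1 kb of the transcription starts, counts were small, 1 to 96 reads per gene and library, and 9 members had enough for a test (ERCC5 did not reach a mean of 10). No member passed in any comparison, where 0.497% of 18118 genes passed between the untreated lines and 0.0% in each response. The start of ERCC8, whose promoter is shown above and is shared with NDUFAF2, had 0.573, 0.637 and 0.398 in PEO4 without drug. It had 0.600, 1.39 and 0.656 with 16 µM, and 1.83, 1.79 and 1.39 with 32 µM. The 32 µM libraries all lay above the untreated ones (9.77% of genes did not overlap, in either direction). Its log2 difference over untreated was 1.63 ± 0.63 (edgeR adjusted p of 1.0, with 3.38% of genes at an unadjusted p under 0.05), and ERCC2 lay below without overlap, at 0.699, 0.279 and 0.222 against 0.819, 0.892 and 1.33. Summed over all 10 starts, coverage in PEO1 was 0.524, 0.707 and 0.629 before and 1.01, 0.840 and 0.720 after treatment. Untreated PEO4 had 1.13, 0.969 and 1.04, above all untreated PEO1 libraries, and no test was made of these sums. Starts moved this way across the genome: of 18118 genes, 17.7% were higher and 3.7% lower without overlap in untreated PEO4 than in untreated PEO1, and 11.6% higher and 2.09% lower in PEO1 after treatment.

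**Figure D5:**
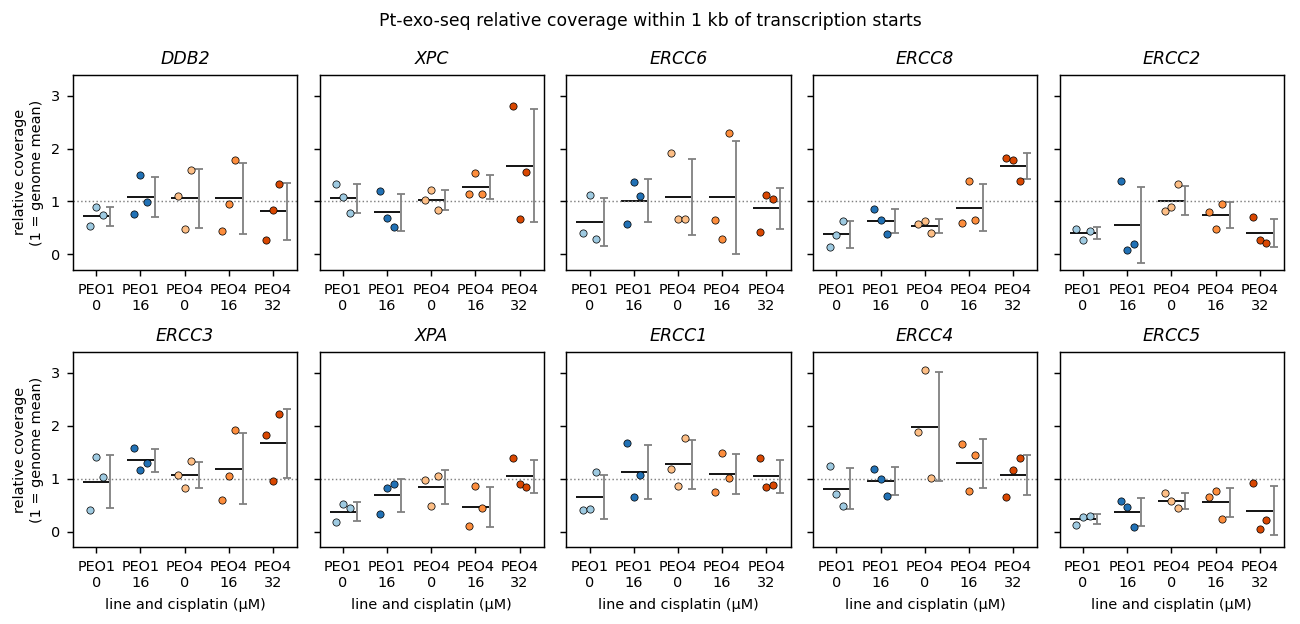
Relative coverage within 1 kb of each transcription start (y axis, 1 is the genome mean) by line and cisplatin dose in µM (x axis). Points are the 3 libraries of a group, black lines their means and grey bars their SD, and the 3 ERCC8 points at 32 µM lie between 1.39 and 1.83.

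Along the gene bodies, the part nearer the start was set against a far part of equal length. None of the 10 members passed for either response difference (0.0% of 14265 genes). XPC had the largest value with an unadjusted p under 0.05, 0.89 ± 0.31 at 32 µM (limma adjusted p = 0.829, with 5.82% of genes under that p). Its PEO4 libraries at 32 µM had 181, 277 and 238 reads in the near part and 130, 198 and 149 in the far part, while PEO1 at 16 µM had 276, 265 and 295 against 357, 314 and 245.

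Of 46 further genes of the pathway, 43 had enough reads in the gene body. Between the untreated lines 4 passed, 3 higher in PEO4 and 1 lower, beside the 21.7% of all genes. UVSSA, which stabilises ERCC6 at stalled polymerase, was higher by 1.12 ± 0.17 (adjusted p = 1.36e-05), the TFIIH subunit GTF2H4 by 1.14 ± 0.35 (adjusted p = 0.0186) and XAB2, an XPA-binding protein, by 0.71 ± 0.23 (adjusted p = 0.0259). RFC4, a subunit of the clamp loader used in resynthesis, was lower, at -0.81 ± 0.19 (adjusted p = 0.00188). The flanks of UVSSA, GTF2H4 and RFC4 were called in the same directions, at 0.86 ± 0.12, 1.04 ± 0.09 and -0.76 ± 0.05. In the cisplatin responses and response differences, none of the 43 passed in edgeR, and at an unadjusted p under 0.05 there were 0 to 4.

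ERCC2, the member with the largest difference between the untreated lines, was compared with 16797 genes on other chromosomes or at least 1 Mb away. The most similar patterns over the 15 libraries were those of EFCC1 on chromosome 3 (Pearson r = 0.935), the unnamed ENSG00000269179 on chromosome 19 (0.921) and YJU2B on chromosome 19 (0.92). All 3 were GC-rich (51.2% to 52.6%), and 256 genes had an r above 0.8. GC slopes differed between the libraries, from -0.417 to 0.435. Their part in these r values was not tested, so the values are descriptive.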

How the data were processed

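Pt-exo-seq libraries of PEO1 and PEO4 were represented by raw read counts in 1000 bp windows stepped by 900 bp, as deposited by the authors, whose pipeline comprised BBDuk trimming, bowtie2 alignment on hg19, Picard deduplication and removal of blacklisted regions (versions are not given in the sources used here). The study's restriction to windows of moderate ATAC-seq depth was not applied. All 23 chromosome ends compared equalled GRCh37. Windows were assigned by midpoint to GENCODE release 44 canonical transcripts mapped to GRCh37, and promoter sequences were read from that genome.

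Sums entered edgeR 4.0.16 under R 4.3.3 and its quasi-likelihood test (TMM scaling, 5 groups in 1 fit, mean count of at least 50, or 10 at starts), and log2 ratios of body to flank or of the near to the far part of the body (pseudocount 0.5) entered limma 3.58.1. P-values were adjusted by Benjamini-Hochberg over all tested genes, with a threshold of 0.05. A response difference was the PEO4 change minus the PEO1 change. The scripts were tested on simulated counts. Alternatives were DESeq2 1.42.0, other scalings and filters, a GC offset, a replicate block, other flanks and gene definitions, and omission of single libraries. All 10 members were named, with up to 6 pathway genes called per comparison and 3 genes most like the member that differed most between the untreated lines. The members, lists and tests were chosen with earlier results of these data known. Counts include no molecular identifiers, so intervals cover the spread between libraries only.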

Additional observations from a re-analysis of the deposited data

How the results depend on the processing

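No member passed for any cisplatin response or response difference under any of the alternatives run, including the study's kind of test on signal over the untreated mean. Over these settings the response difference at 32 µM ranged from 0.59 to 1.58 for XPA, from -1.06 to -0.44 for ERCC2 and from 0.23 to 0.57 for ERCC8. Depth limits what can be seen at transcription starts, where counts per gene were small.

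The number of members called between the untreated lines depended on the setting. For gene bodies it was 2, and it became 4 with every second window (DDB2, ERCC2, ERCC8 and XPA, a fit that uses fewer reads), 3 with only the compared groups (ERCC1, ERCC2 and ERCC8), 1 with the whole gene record (added after the data were seen), 1 with a replicate block, 0 with a GC offset, 0 with the replicate block and the GC offset together, and 0 to 2 when a library was left out. For flanks it was 1, and it became 0 with a 100 kb flank, 3 with a 500 kb flank, 4 with DESeq2, 4 with only the compared groups, 2 with a GC offset, 0 with a replicate block, 2 with the replicate block and GC offset, and 0 to 2 without 1 library. The cause was not tested. Over all genes, calls between the untreated lines were 3653 of 16857 bodies, and 2867 of 14719 with every second window. They were 5132 with only the compared groups, 3895 of 17231 with the whole gene record and 3910 with a GC offset. The block and GC offset together gave 3882, and omission of 1 library 2966 to 3285. Flank calls rose from 6896 to 11554 of 20048 with only the compared groups. They were 6264 of 20016 at 100 kb, 7438 of 20065 at 500 kb and 8114 with DESeq2. A GC offset gave 8081 flanks, block and GC offset 7980, and omission of 1 library 5101 to 6365. At starts the calls over all genes were 90, and 310 with DESeq2, 168 with library size only and 57 with a GC offset. They were 50 with only the compared groups, 2841 within 5 kb and 5 to 50 without 1 library. For body over flank they were 10, and 1 with a 100 kb flank, 27 with a 500 kb flank, 16 at a mean count of 200 and 3 to 11 without 1 library. Nothing in the labels or the data paired libraries by replicate number: the correlation of same-numbered libraries' deviations averaged -0.048 over 30 pairs (range -0.495 to 0.409), against 0.023 for other pairs, and the block changed no other call of a member. Over all genes the block moved the number of calls from 3653 to 3357 for bodies, from 6896 to 5724 for flanks and from 90 to 65 for starts.

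The pooled log2 difference of PEO4 over PEO1, untreated, was 0.011 and moved to -0.063 with TMM scaling, -0.022 with GC-corrected counts, and -0.023, 0.037, 0.082, -0.039 and -0.021 without DDB2, ERCC6, ERCC8, ERCC2 and ERCC1. The pooled response of PEO4 to 32 µM was -0.006 and moved to 0.061 with TMM scaling, 0.036 with GC-corrected counts, -0.091 without ERCC8 and 0.018 without ERCC2, and the pooled response difference at 32 µM of -0.051 moved to 0.059 with TMM scaling and -0.155 without ERCC8.

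Some uncalled values changed sign. In gene bodies, ERCC1 became 0.108 with every second window (32 µM over untreated PEO4) and -0.016 with the whole gene record (32 over 16 µM). In flanks between the untreated lines, XPC became 0.064 with library size only and 0.088 with a 500 kb flank, DDB2 -0.018 with a GC offset with or without a replicate block, ERCC6 0.066 with library size only and ERCC4 0.006 with a GC offset with or without a block. Without 1 library, values ranged from -0.477 to 0.002 for ERCC2 (16 µM over untreated PEO4), from -0.287 to 0.104, -0.116 to 0.072 and -0.012 to 0.197 for XPC, ERCC6 and ERCC3 (32 µM over untreated PEO4), and from -0.258 to 0.133 and -0.136 to 0.079 for XPC and ERCC3 (32 over 16 µM in PEO4).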
